A study of Bos taurus with 12 samples.

Results

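Haptoglobin (HP), lactotransferrin or lactoferrin (LTF), lipopolysaccharide-binding protein (LBP), the secretory leukocyte peptidase inhibitor (SLPI), lipocalin 2 (LCN2), the polymeric immunoglobulin receptor (PIGR), serum amyloid A3 (SAA3) and ceruloplasmin (CP) are acute-phase and secreted mucosal defence proteins. Their transcript abundance was followed in bovine endometrium. All probe sets that the platform annotation assigns to 1 of these 8 gene symbols were taken, and 10 of 24016 tested probe sets were found. They measured 7 of the 8 genes, with 2 probe sets for LTF, 3 for CP and 1 for each of the others, while LCN2 was matched to no probe set and is not analysed here. Where a gene had several probe sets, the leading one is that with the highest mean signal.

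Endometrium came from Simmental heifers and was assigned to 4 groups of 3 RNA pools, with 1 Affymetrix bovine array per pool. Receptive endometrium of day 7, receptive endometrium of day 3, non-receptive endometrium of day 7 and non-receptive endometrium of day 3 of the estrous cycle were compared, and receptivity was set by pregnancy success after embryos produced in vivo were transferred. No agent or allele is named in the labels, the age of the heifers and the number of animals in a pool are not given, and nothing says that pools of a group came from separate animals, so that p-values measure the spread between pools only. In bulk tissue, fewer cells of a type and less RNA per cell cannot be told apart.

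Acute-phase proteins are plasma proteins that the liver makes in larger or smaller amounts when cytokines of the interleukin-1 and interleukin-6 families signal inflammation, and several of them are also made by mucosal epithelia. HP captures free haemoglobin, CP oxidises iron and carries copper, LTF binds iron and so withholds it from bacteria, and LBP hands bacterial lipopolysaccharide to its receptor complex. SAA3 is the serum amyloid A made outside the liver, SLPI inhibits neutrophil proteases, and PIGR carries polymeric IgA and IgM through epithelial cells into the lumen. Neutrophils also store LTF in their granules, and HP has been found in bovine neutrophils.

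Array medians were between 6.64 and 6.76 on the log2 scale, and pools of a group correlated at 0.952 to 0.971 across probe sets. Most markers of simple epithelium were high (10 of 11 measured, mean log2 signal between 10.59 and 11.11 in the 12 pools, EPCAM at 13.01 and KRT19 at 12.54). KRT8 was the exception, with a mean of 6.28, below the array medians. Of the 7 uterine genes measured, MSX1 (12.14) and OXTR (10.16) gave high signals and the receptors ESR1 (3.88) and PGR (4.37) low ones. SERPINA14 (6.08, at 0 in 2 pools), HOXA10 (4.78) and FOXL2 (3.46) were also below the array medians. The 3' probe set of the actin control exceeded its 5' probe set in all 12 pools, which is read as shorter RNA where the gap is larger. On day 7 the gap was 0.82 to 1.25 in receptive and 0.02 to 0.63 in non-receptive pools. On day 3 it was 3.11, 1.05 and 1.80 in receptive pools 1 to 3 and 0.48 to 0.93 in non-receptive pools. The gap was thus larger in receptive pools on both days with no overlap, and the part of RNA length in the receptivity differences was not tested.

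**Figure D1:**
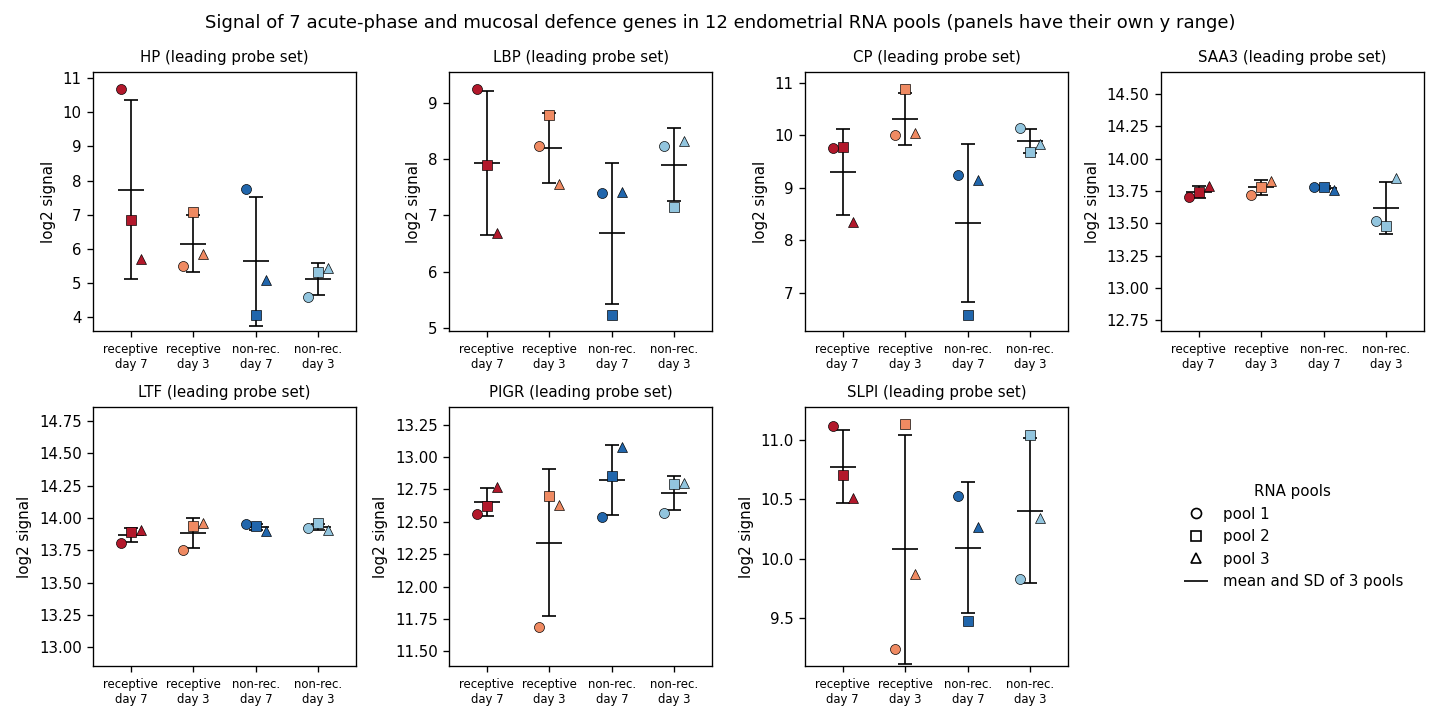
Log2 signal (y axis, own range in each panel) of the leading probe set of 7 genes in each pool (points, shape for the pool number) by group (x axis). Lines give the group mean and its SD. HP reached 10.67 in receptive day 7 pool 1, LBP and CP were lowest in non-receptive day 7 pool 2 (5.24 and 6.59), and LTF and SAA3 stayed between 13.48 and 13.96.

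None of the 10 probe sets passed between the days or between the receptivity groups (limma, adjusted p under 0.05 over all probe sets). CP came closest, with values 1.21 to 1.36 log2 units below day 3 on day 7. On day 7, pools of 1 group differed more in HP, LBP and CP (spans of 1.22 to 4.98) than in SAA3, PIGR and the leading LTF probe set (spans of 0.02 to 0.54). SLPI and the other LTF probe set lay between, with spans of 0.60 to 1.05. This order did not hold on day 3, where PIGR spanned 1.01 in receptive pools and the CP probe sets 0.30 to 0.88. SAA3 and the leading LTF probe set lay at the upper end of the signal scale.

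Of the 7 genes HP had the widest range, with 10.67, 6.85 and 5.69 in receptive day 7 pools, 5.51, 7.09 and 5.86 in receptive day 3 pools, 7.74, 4.08 and 5.10 in non-receptive day 7 pools and 4.59, 5.32 and 5.45 in non-receptive day 3 pools (log2 signal, pools 1 to 3). A single receptive pool of day 7 was far above all others, and the days overlapped within each receptivity group. The SD over the 12 pools, 1.76, was above that of 99.4% of all probe sets. Averaged over receptivity groups, the difference of day 7 minus day 3 was 1.05 ± 0.87 (SE, 95% interval -0.90 to 3.00, adjusted p = 0.458). In receptive endometrium it was 1.58 ± 1.24 (adjusted p = 0.517) and in non-receptive endometrium 0.52 ± 1.24 (adjusted p = 0.855). Without receptive day 7 pool 1 the averaged difference was 0.32 and that in receptive endometrium 0.12, and without non-receptive day 7 pool 1 the difference in non-receptive endometrium was -0.53.

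Between receptivity groups, HP averaged 7.74 ± 2.61 in receptive and 5.64 ± 1.89 in non-receptive pools of day 7 (SD, n = 3 each). The difference was 2.10 ± 1.24 (SE, 95% interval -0.66 to 4.85, adjusted p = 0.826), and it was 0.63 without receptive day 7 pool 1. On day 3 HP averaged 6.15 ± 0.83 in receptive and 5.12 ± 0.46 in non-receptive pools (SD, n = 3 each), a difference of 1.03 ± 1.24 (SE, adjusted p = 0.962). The 3 receptive pools of day 3 lay between 5.51 and 7.09 and the 3 non-receptive pools between 4.59 and 5.45, with no overlap, which held in this direction for 4.61% of all probe sets. Among the 10 probe sets that of HP was the 1 with no overlap in this direction on day 3. A count of 1 in 10 is too small to set HP apart from that share.

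LBP had 9.24, 7.89 and 6.68 in receptive day 7 pools, 8.24, 8.79 and 7.55 in receptive day 3 pools, 7.40, 5.24 and 7.41 in non-receptive day 7 pools and 8.23, 7.15 and 8.32 in non-receptive day 3 pools. The highest and the lowest pool were both of day 7, in opposite receptivity groups, and the groups overlapped on both days. Day 7 minus day 3 was -0.74 ± 0.52 (SE, adjusted p = 0.379) averaged over receptivity groups, -0.26 ± 0.74 in receptive and -1.22 ± 0.74 in non-receptive endometrium (adjusted p = 0.888 and 0.387). On day 7 the difference of receptive minus non-receptive was 1.25 ± 0.74 (SE, 95% interval -0.40 to 2.90, adjusted p = 0.826), and on day 3 it was 0.29 ± 0.74 (adjusted p = 0.984). Without non-receptive day 7 pool 2, the difference of the receptivity groups on day 7 was 0.53 and the day difference in non-receptive endometrium -0.50. Without receptive day 7 pool 1 the difference on day 7 was 0.60.

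CP, the copper-carrying ferroxidase, was measured by 3 probe sets that followed each other closely over the pools (Pearson's r of 0.97 to 0.98, 12 pools, as a description), called here the leading one and, in the order of their identifiers, the second and the third. The leading probe set had 9.76, 9.79 and 8.36 in receptive day 7 pools, 10, 10.88 and 10.05 in receptive day 3 pools, 9.24, 6.59 and 9.15 in non-receptive day 7 pools and 10.15, 9.69 and 9.84 in non-receptive day 3 pools. Within each receptivity group all pools of day 7 were below all pools of day 3, while across the groups receptive day 7 pools 1 and 2 reached the level of the lowest non-receptive day 3 pool. The day 7 groups varied more than the day 3 groups, with SDs of 0.82 and 1.50 on day 7 in receptive and non-receptive pools, against 0.49 and 0.23 on day 3.

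The second CP probe set had 8.15, 7.55 and 6.56 in receptive day 7 pools, 8.37, 8.67 and 8.46 in receptive day 3 pools, 7.68, 5.07 and 7.25 in non-receptive day 7 pools and 8.68, 8.16 and 8.05 in non-receptive day 3 pools. It likewise kept the days apart within both receptivity groups, which was so in this direction for 7.12% of all probe sets. The third was between 7.77 and 8.99 in receptive pools of day 7 and between 8.83 and 9.65 in those of day 3, which overlapped. In non-receptive pools it was between 5.74 and 8.48 on day 7 and between 8.95 and 9.62 on day 3, with no overlap.

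**Figure D2:**
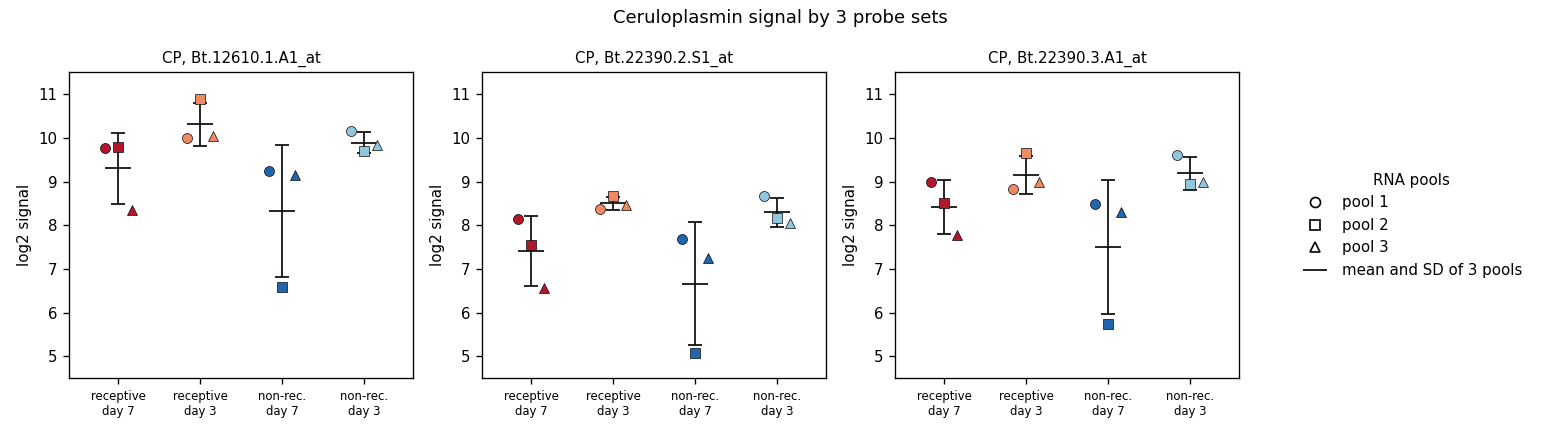
Log2 signal (y axis) of the 3 CP probe sets in each pool (points, shape for the pool number) by group (x axis). Lines give the group mean and its SD. Non-receptive day 7 pool 2 is lowest in every panel, at 6.59, 5.07 and 5.74.

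The averaged difference of day 7 minus day 3 was -1.29 ± 0.47 for the leading CP probe set, -1.36 ± 0.43 for the second and -1.21 ± 0.46 for the third (SE, adjusted p = 0.0964, 0.0645 and 0.105, limma). On the linear scale these are signals 2.31 to 2.56 times lower on day 7, and none passed. They were the 3 of 10 probe sets with an unadjusted p under 0.05, against 30.8% of all probe sets. All 3 read the same gene and are not independent of each other. The second passed in 5 of 20 alternative fits, with the lowest adjusted p (0.0385) when dim probe sets were left out, and its highest adjusted p was 0.136. Without non-receptive day 7 pool 2 the 3 averaged differences were -0.85, -0.96 and -0.77 in the same order.

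Within non-receptive endometrium the CP differences of day 7 minus day 3 were -1.57, -1.63 and -1.68 (adjusted p = 0.221, 0.173 and 0.181), and within receptive endometrium -1.01, -1.08 and -0.74 (adjusted p = 0.435, 0.358 and 0.572). Without non-receptive day 7 pool 2 those in non-receptive endometrium were -0.70, -0.83 and -0.80, and without receptive day 7 pool 3 those in receptive endometrium were -0.54, -0.65 and -0.41. No overlap with lower values on day 7 was seen for 3 of 10 probe sets in non-receptive and 2 of 10 in receptive endometrium, all of CP, against 15.6% and 16.5% of all probe sets. Receptive minus non-receptive was 0.98, 0.75 and 0.92 on day 7 (adjusted p = 0.837, 0.857 and 0.842), and 0.11, -0.04 and 0.03 without non-receptive day 7 pool 2. On day 3 it was 0.42, 0.20 and -0.03.

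Some markers of stromal fibroblasts were lower on day 7. Of 10 measured markers 0 rose, 3 fell and 7 did not pass, with a median difference of -0.98. Over all probe sets 4.76% rose and 9.44% fell. FBLN1 fell by 1.54, COL3A1 by 1.73 and THY1 by 0.45 (adjusted p = 0.003, 0.0297 and 0.0279). The mean log2 signal of the list was 7.76 to 8.54 in receptive day 7 pools, 9.24 to 9.33 in receptive day 3 pools, 7.96 to 8.84 in non-receptive day 7 pools and 8.14 to 10.19 in non-receptive day 3 pools, with no marker at 0 in any pool. The part of stromal cells in the CP values was not tested.

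LBP and CP varied together over the pools. The leading CP probe set and LBP had a Pearson's r of 0.88 and a Spearman's rho of 0.74 over the 12 pools (both genes on the same arrays, given as a description with no test), and r was 0.71 without non-receptive day 7 pool 2. After the mean of each group was taken off, r was 0.86. In that pool HP was also lowest of all 12, at 4.08, whereas PIGR (12.85), LTF (13.94) and SAA3 (13.78) were not. SLPI was low there, at 9.48, and lower only in receptive day 3 pool 1 (9.24). The actin gap of non-receptive day 7 pool 2, 0.02, was the smallest of the 12, and the part of RNA length in these values was not tested.

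SAA3 differed little between pools, with 13.70, 13.74 and 13.79 in receptive day 7 pools, 13.72, 13.78 and 13.83 in receptive day 3 pools, 13.78, 13.78 and 13.76 in non-receptive day 7 pools and 13.52, 13.48 and 13.85 in non-receptive day 3 pools. Only 2 non-receptive pools of day 3 were under 13.70. The averaged difference of day 7 minus day 3 was 0.06 ± 0.08 (SE, 95% interval -0.11 to 0.24, adjusted p = 0.641). Receptive minus non-receptive was -0.03 ± 0.11 on day 7 and 0.16 ± 0.11 on day 3 (SE, adjusted p = 0.974 and 0.945).

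The iron-binding LTF was read by 2 probe sets of very different brightness. The leading probe set had 13.81, 13.89 and 13.91 in receptive day 7 pools, 13.75, 13.94 and 13.96 in receptive day 3 pools, 13.95, 13.94 and 13.90 in non-receptive day 7 pools and 13.92, 13.96 and 13.91 in non-receptive day 3 pools. It gave the highest signal of all tested probe sets on 9 of the 12 arrays, where the highest value of any array was 14.06. Its SD over the pools was 0.06. The 95 probe sets with a mean of at least 13 had a median SD of 0.10 over the 12 pools, against 0.29 for all tested probe sets, and it does not follow from their small spread that LTF or SAA3 transcripts were equally abundant in all pools. Whether the scale limited these signals was not tested. Signals of different probe sets are not a measure of which transcript is more abundant.

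The second LTF probe set was in the middle of the scale and spread more, with 8.55, 8.94 and 9.43 in receptive day 7 pools, 8.25, 9.99 and 9.51 in receptive day 3 pools, 9.51, 9.09 and 8.49 in non-receptive day 7 pools and 9.76, 9.47 and 9.11 in non-receptive day 3 pools. All groups overlapped. Averaged over receptivity groups, day 7 minus day 3 was -0.35 ± 0.31 by this probe set (SE, 95% interval -1.04 to 0.34, adjusted p = 0.492) and -0.01 ± 0.06 by the leading one (adjusted p = 0.958). Receptive minus non-receptive was -0.06 by either probe set on day 7, and -0.20 and -0.05 on day 3 by the second and the leading one (adjusted p of at least 0.917). Both probe sets were lowest in receptive day 3 pool 1, and they correlated at 0.79 over the 12 pools and at 0.69 without it.

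**Figure D3:**
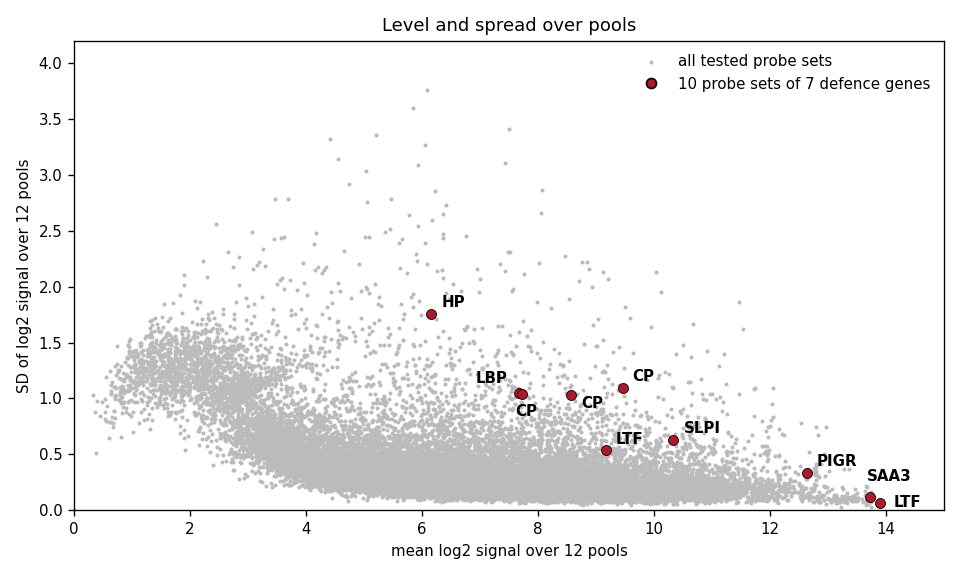
Mean log2 signal over the 12 pools (x axis) against the SD over the 12 pools (y axis) for all tested probe sets (grey) and the 10 probe sets described (red). The leading LTF probe set (mean 13.90, SD 0.06) and SAA3 (13.73, 0.11) lie at the bright end with a small spread, and HP (6.16, 1.76) is among the most variable.

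PIGR, the transporter of secretory antibodies, had 12.56, 12.62 and 12.77 in receptive day 7 pools, 11.69, 12.70 and 12.63 in receptive day 3 pools, 12.54, 12.85 and 13.08 in non-receptive day 7 pools and 12.57, 12.79 and 12.80 in non-receptive day 3 pools. With the exception of receptive day 3 pool 1 all values lay within 0.54 of each other. The averaged difference of day 7 minus day 3 was 0.21 ± 0.18 (SE, adjusted p = 0.473), and 0.04 without that pool. Receptive minus non-receptive was -0.17 ± 0.25 on day 7 and -0.38 ± 0.25 on day 3 (SE, adjusted p = 0.913 and 0.943). Without receptive day 3 pool 1 the day 3 difference was -0.06.

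SLPI, the antiprotease of mucosal secretions, had 11.11, 10.70 and 10.51 in receptive day 7 pools, 9.24, 11.13 and 9.87 in receptive day 3 pools, 10.53, 9.48 and 10.27 in non-receptive day 7 pools and 9.83, 11.04 and 10.34 in non-receptive day 3 pools. The receptive day 7 pools were close together, and the other groups spanned 1.05 to 1.89 log2 units and overlapped with them. Day 7 minus day 3 was 0.69 ± 0.48 in receptive and -0.31 ± 0.48 in non-receptive endometrium (SE, adjusted p = 0.462 and 0.765), and 0.19 ± 0.34 on average (adjusted p = 0.751). Receptive minus non-receptive was 0.68 ± 0.48 on day 7 and -0.32 ± 0.48 on day 3 (SE, adjusted p = 0.842 and 0.972). In receptive day 3 pool 1, the pool with the largest actin gap, SLPI, PIGR and both LTF probe sets each had their lowest value of the 12 pools, and the part of RNA length in these values was not tested.

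**Figure D4:**
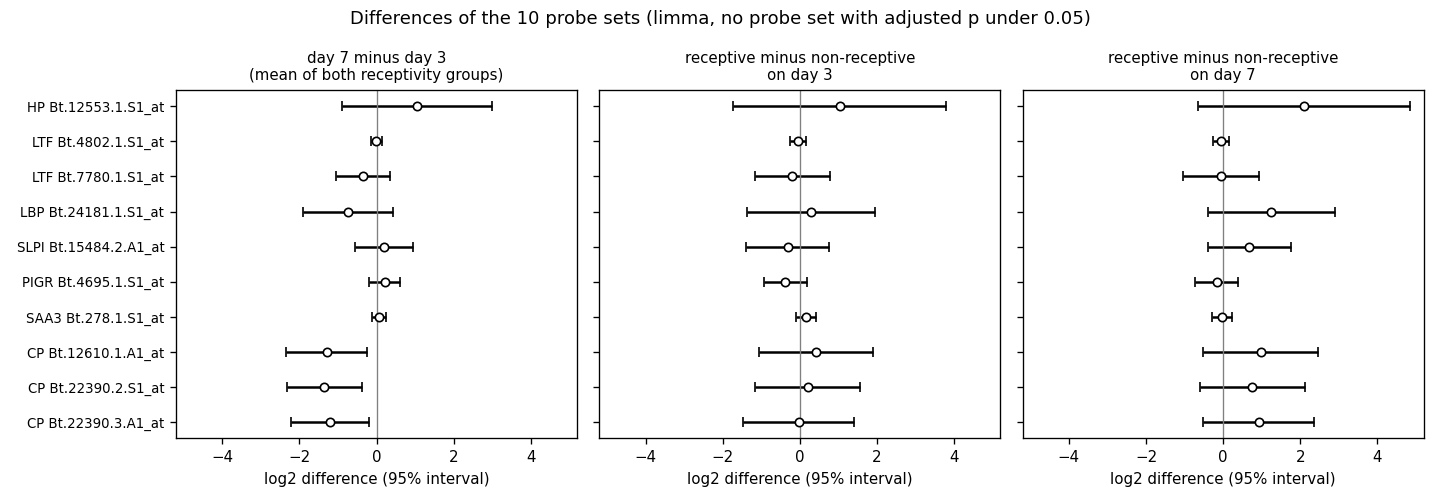
Log2 differences with 95% intervals (x axis) of the 10 probe sets (y axis) for day 7 minus day 3 averaged over receptivity groups and for receptive minus non-receptive endometrium on day 3 and day 7. Intervals of the 3 CP probe sets in the day comparison lie below 0 before adjustment for the number of tests, and all others include 0.

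Counted over the 10 probe sets, 0 passed between the days averaged over receptivity groups (limma, smallest adjusted p = 0.0645), where 14.2% of all probe sets passed. In receptive endometrium 0 of 10 passed and 0 had an unadjusted p under 0.05 (1.96% and 20.4% of all probe sets), and in non-receptive endometrium 0 of 10 passed and 3 had an unadjusted p under 0.05 (2.48% and 20.5%). These shares over all probe sets varied widely with 1 pool left out. In receptive endometrium 471 probe sets passed with all pools, 9 when receptive day 3 pool 1 was left out and 16 when pool 3 of that group was, and in non-receptive endometrium 596 passed with all pools and 4 without non-receptive day 3 pool 1. The median difference of day 7 minus day 3 over the 10 was -0.18 (-0.32 to -0.08 with 1 pool left out), against -0.05 over all tested probe sets. On day 7, 0 of 10 passed between receptivity groups by limma and 0 had an unadjusted p under 0.05, where 0% and 5.81% of all probe sets did, with a median difference of 0.72 against -0.02 over all probe sets. CP enters this median with 3 probe sets, and without non-receptive day 7 pool 2 the median was 0.00, while without receptive day 7 pool 1 it was 0.45 and without non-receptive day 7 pool 1 it was 1.08. On day 3, 0 of 10 passed and 0 had an unadjusted p under 0.05 (0.0125% and 5.26% of all probe sets), with a median of 0.06 (-0.04 to 0.23 with 1 pool left out) against -0.01. The receptivity difference averaged over both days passed in 0 of 10 with 0 at an unadjusted p under 0.05 (0.00416% and 7.38% of all probe sets). The difference between the day changes of receptive and non-receptive endometrium also passed in 0 of 10, with 0 at an unadjusted p under 0.05 (limma, smallest adjusted p = 0.999), where 0% and 3.39% of all probe sets did. With 3 pools in each group the intervals of HP, LBP and CP between receptivity groups still included differences of more than 1 log2 unit in at least 1 direction on either day.

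Other genes of the same systems were compared over the days as well, with the probe set of highest mean signal for each gene. Of 25 other secreted defence genes 8 rose and 1 fell by day 7, averaged over receptivity groups, where 4.76% of all probe sets rose and 9.44% fell, and the median difference was 0.16. That balance over all probe sets depended on the scaling, with 1144 higher and 2268 lower as deposited, 1430 and 1814 after quantile normalization and 1601 and 1562 after median centring. The list was chosen with earlier results of these data known, so that its excess over all probe sets is not independent evidence. Among the 8 that rose, EBD, DEFB4A and DEFB10 are related beta-defensins. BPI, which binds and kills Gram-negative bacteria and is related to LBP, rose by 2.38 ± 0.27 (SE, adjusted p = 0.00164). Its values were 7.03, 7.64 and 7.60 in receptive day 7 pools, 4.83, 5.42 and 5.39 in receptive day 3 pools, 6.68, 7.48 and 7.74 in non-receptive day 7 pools and 3.99, 5.31 and 4.95 in non-receptive day 3 pools. The days did not overlap. The lysozyme LYZ2 rose by 3.36 (adjusted p = 0.00819), the enteric beta-defensin EBD by 3.52 (adjusted p = 0.0101) and the lectin LGALS3 by 0.71 (adjusted p = 0.00741). CLU, or clusterin, was the 1 gene that fell and was named for that after its values were seen (-0.38, adjusted p = 0.012).

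**Figure D5:**
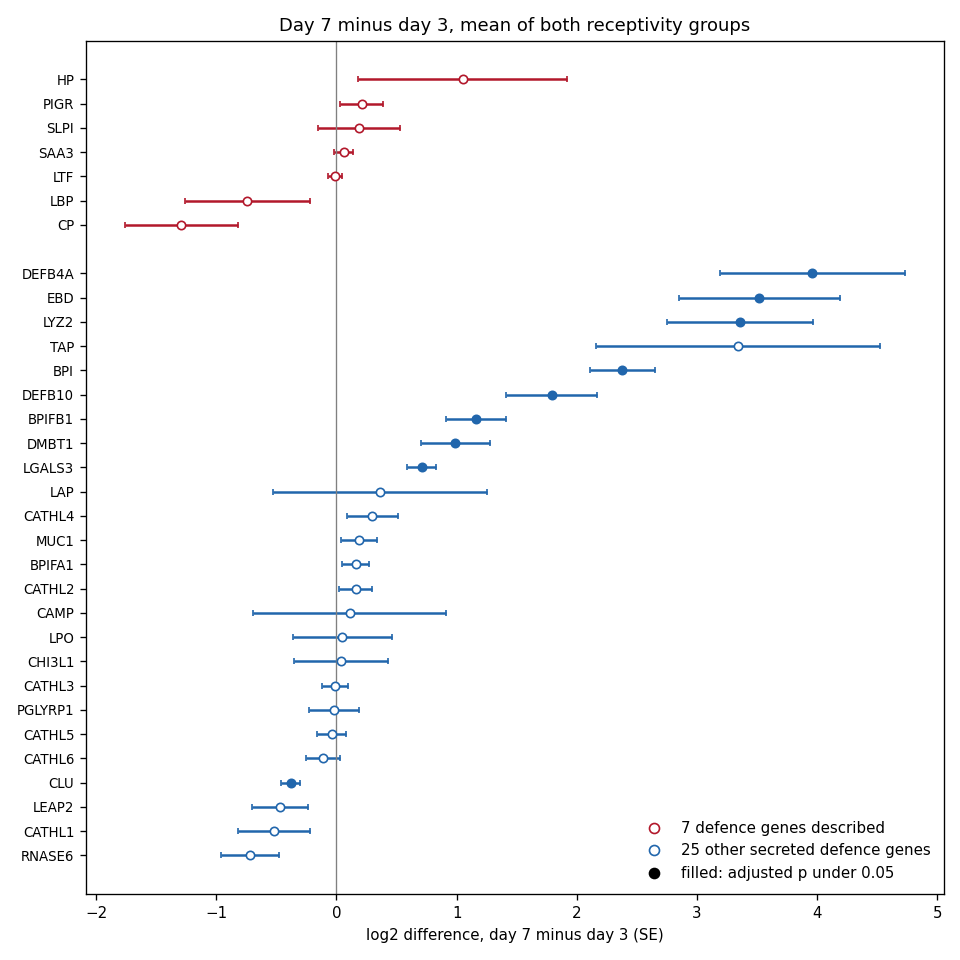
Log2 difference of day 7 minus day 3 averaged over receptivity groups with its SE (x axis) for the leading probe sets of the 7 genes described (red) and for 25 other secreted defence genes (blue, y axis), filled where the adjusted p was under 0.05. BPI (2.38), LYZ2 (3.36) and EBD (3.52) are filled, and none of the 7 is.

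Of 24 other genes of acute-phase and related plasma proteins 2 rose and 2 fell by day 7, with a median difference of -0.06. The list holds proteins that rise and proteins that fall in plasma during inflammation, so that these counts and the median give no acute-phase direction. Over all probe sets 4.76% rose and 9.44% fell. SAA4, a serum amyloid A of the same family as SAA3, rose by 0.87 ± 0.16 (SE, adjusted p = 0.00935). It had 10.52, 10.39 and 10.23 in receptive day 7 pools, 9.05, 10.07 and 9.38 in receptive day 3 pools, 10.35, 10.21 and 10.13 in non-receptive day 7 pools and 9.24, 9.28 and 9.61 in non-receptive day 3 pools, with no overlap between the days. ITIH4, of the inter-alpha-trypsin inhibitor family, rose by 0.93 (adjusted p = 0.0269), while transthyretin (TTR), which falls in plasma during inflammation, fell by 1.58 (adjusted p = 0.00106) and the complement component C3 by 0.77 (adjusted p = 0.0306). The calls of ITIH4 and C3 were lost in some alternative fits (highest adjusted p = 0.0646 and 0.0719, both without non-receptive day 7 pool 1). Against 4.76% and 9.44% of all probe sets, 1 of 21 inflammatory inducers and transcription factors rose and 0 fell. This was the cytokine IL18, by 1.51 (adjusted p = 0.000926), and the classical inducers IL6 and IL1B had differences of 0.32 and 0.73 (adjusted p = 0.847 and 0.303). Both were highest in receptive day 7 pool 1, the pool with the highest HP. IL6 had 6.89 there and IL1B 9.42, against 5.58 and 6.88 in the next highest pools. TNF was not highest there, with 6.57 against 7.26 in non-receptive day 7 pool 1. The part of these inducers in the HP values was not tested.

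Of 13 genes that recognise or handle the ligands of these proteins 2 rose and 3 fell, against 4.76% and 9.44% of all probe sets. The haem oxygenase HMOX1, which breaks down haem, rose by 1.64 (adjusted p = 0.008). SLC22A17, described as a receptor of lipocalin 2, fell by 1.13 (adjusted p = 0.00224), the iron importer SLC11A2 by 0.87 (adjusted p = 0.0075) and the flagellin receptor TLR5 by 0.86 (adjusted p = 0.0137). The phagosomal metal transporter SLC11A1 rose by 2.26, was named after its values were seen and lost its call in 10 of 20 alternative fits (adjusted p = 0.0435, highest 0.0908). Of 6 genes of secretory antibody production 1 rose, MZB1 of antibody-secreting cells, by 0.77 (adjusted p = 0.00197), where 4.76% of all probe sets rose. By limma 0 genes of these 5 lists passed between receptivity groups on day 3 or day 7, where 0.0125% and 0% of all probe sets passed.

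Some neutrophil markers differed between the days as well. Of 13 measured markers 5 rose, 0 fell and 8 did not pass by day 7, BPI counted again and among them S100A12 by 3.70 and S100A8 by 3.33 (adjusted p = 0.0039 and 0.00591). Their mean log2 signal was 5.82 to 6.86 in receptive day 7 pools, 4.68 to 4.89 in receptive day 3 pools, 5.62 to 6.14 in non-receptive day 7 pools and 4.92 to 4.96 in non-receptive day 3 pools. The highest, 6.86, was in receptive day 7 pool 1, the pool with the highest HP and LBP. The next means were 6.14, 6.12 and 6.09, in non-receptive day 7 pool 3, receptive day 7 pool 2 and non-receptive day 7 pool 1. HP was 5.10, 6.85 and 7.74 in these pools. Receptive day 3 pool 2 had a neutrophil mean of 4.78 with HP at 7.09 and LBP at 8.79. MMP9 also rose, by 4.79 (adjusted p = 0.00426), but was at 0 in 3 pools, all of day 3. ELANE and MPO, with mean signals of 4.10 and 3.90 and no pool at 0, had day differences of -0.37 and 0.31 and did not pass (adjusted p = 0.365 and 0.425). ITGAM was at 0 in 1 pool. Markers of hepatocytes and plasma had means of 5.15 to 5.65 in receptive day 7 pools, 5.46 to 5.54 in receptive day 3 pools, 5.25 to 5.53 in non-receptive day 7 pools and 5.43 to 5.95 in non-receptive day 3 pools, with 0 of 9 higher and 1 lower on day 7 and FGB and FGG at 0 in 2 and 1 pools. Of 5 measured markers of stratified squamous epithelium 4 rose by day 7, with means of 6.25 to 7.50 in receptive day 7 pools, 5.30 to 5.63 in receptive day 3 pools, 7.68 to 7.87 in non-receptive day 7 pools and 5.80 to 5.96 in non-receptive day 3 pools. CD68 of macrophages rose (1 of 6 markers, 0 fell), PTPRC of leukocytes fell (1 of 5, 0 rose), MZB1 and DERL3 of plasma cells rose (2 of 4, 0 fell), and of 5 erythrocyte markers HBB rose and ALAS2 fell. For all these marker counts the shares over all probe sets were 4.76% higher and 9.44% lower on day 7. The part of these cells in the values of the 7 genes and of the other defence genes was not tested.

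The genes most like each member over the 12 pools were sought among 8770 probe sets by Pearson's r and as a description only. These had 1 gene symbol, a mean of at least 6 and no value at 0. HP was most like MAFF (0.95), GRO1 (0.89) and ZFP36 (0.88), where GRO1 and ZFP36 had a Spearman's rho of 0.57 and 0.52 and an r as low as 0.68 and 0.59 with 1 pool left out. LBP was most like PPP1R1A (0.93), ATF3 (0.93) and PHF19 (0.89), and CP most like PPP1R1A (0.95), MTHFD2 (0.94) and USP21 (0.93), so that LBP and CP shared PPP1R1A. For LTF the most alike were P3H2 (0.95), PEG3 (0.93) and CYP4B1 (0.90), for SAA3 CYP39A1 (0.91), TONSL (0.91) and SLC1A1 (0.89), and for SLPI CFAP410 (0.90), TOLLIP (0.86) and ST6GALNAC6 (0.84). Spearman's rho with SAA3 was 0.56 for CYP39A1, 0.65 for TONSL and 0.68 for SLC1A1. PIGR was most like UBE2H, TRIM8 and IRX3 (0.90 each, Spearman's rho of 0.69, 0.71 and 0.53), and r was as low as 0.70, 0.58 and 0.56 with 1 pool left out.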

How the data were processed

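Signals were deposited by the authors on the log2 scale, 1 per probe set and array, for 12 arrays (2 decimals, 0 to 14.06, with 0 as a floor that none of the 10 probe sets described reached). PLIER, Affymetrix Expression Console and GCOS 1.1.1 stand in the submitters' processing notes with no role or order, and how arrays were scaled to each other is not stated there. Values were used as deposited. After 112 control probe sets were left out, 24016 were tested, of which 13292 carried 1 gene symbol in the platform annotation, 86 several and 10638 none. The 4 group means were estimated jointly from the 12 arrays (limma 3.58.1, functions lmFit and eBayes, under R 4.3.3, two-sided), with 7 contrasts and Benjamini-Hochberg adjustment over all probe sets. Intervals are 95% and unadjusted. The code was tested on simulated data. The number of arrays limits the precision.

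The members and gene lists were chosen with earlier results of these data known. Named were all member probe sets, the 3 genes most like each member, and up to 4 called genes of each list with the smallest p. Gene lists were described by counts and medians, without a set test. Alternatives were 9 other settings and leaving out each of 12 pools. Pool numbers were not taken as pairs: of 18 same-numbered pairs of pools from different groups, 3 deviated from their group means with a correlation over 0.1 (range -0.18 to 0.14). Between day 3 and day 7 these correlations were 0.14, 0.05 and 0.12 in receptive and 0.02, 0.03 and -0.04 in non-receptive endometrium (pools 1 to 3). The labels do not say whether the same heifers were sampled on both days. No sequence is shown because none was held in the sources used here.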

Additional observations from a re-analysis of the deposited data

How the results depend on the processing

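The 42 differences given singly in the text were followed, of 70 that the 10 probe sets have over 7 comparisons. These are the averaged day difference and both receptivity differences of all 10, and the day difference within each receptivity group for the 6 probe sets of HP, LBP, SLPI and CP. Over 20 or 21 alternatives each, 841 of 872 values kept their direction and their side of the threshold. The count of probe sets passing between the days, averaged over receptivity groups, was 0 and became 1 with probe sets of a mean under 5 left out, with an intensity trend and with array weights, each time the second CP probe set. Leaving out 1 pool gave 0 to 1, with 1 without non-receptive day 7 pool 1 or pool 2. The other 6 counts were 0 in every alternative run. With 1 pool left out, all calls between the days numbered 9 to 615 in receptive and 4 to 534 in non-receptive endometrium, and 37 in each in a fit of only the groups compared. That fit gives no value for averaged differences or the difference of day changes. With the pool number as a replicate block, the count of member probe sets stayed at 0 in all 7 comparisons and all calls between the days numbered 3029 against 3412 averaged over receptivity groups, 155 against 471 in receptive and 314 against 596 in non-receptive endometrium, while 5 of 12 pools correlated best with their own number.

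Among these 42, directions changed only where adjusted p was at least 0.563. The leading LTF probe set had an averaged day difference of 0.03 after quantile normalization and 0.06 after median centring, and -0.04 to 0.01 with 1 pool left out. With array weights LBP gave -0.09 between receptivity groups on day 3 and 0.00 between the days in receptive endometrium, and SLPI 0.09 between the days in non-receptive endometrium. With 1 pool left out, the averaged day difference of SLPI was -0.02 to 0.45, and the day difference was -0.53 to 1.30 for HP and -0.60 to 0.01 for SLPI in non-receptive and -0.91 to 0.37 for LBP in receptive endometrium. Between receptivity groups on day 3 the ranges were -0.09 to 0.02 and -0.57 to 0.30 for both LTF probe sets, -0.08 to 0.61 for LBP, -0.85 to 0.10 for SLPI and -0.28 to 0.19 for the third CP probe set. On day 7 they were -0.33 to 0.18 for the second LTF probe set and -0.04 to 1.26 for the second CP probe set. The cause of these changes was not tested. Of 19 genes of the other defence and neutrophil lists that were followed, 16 kept their call in every alternative run. Whether the top of the scale limits what LTF and SAA3 can show was not tested.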
